A study of Mus musculus with 6 samples.

Results

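Group 2 innate lymphoid cells (ILC2s) are lymphocytes without antigen receptors that live in the lung and other barrier tissues. Besides the type 2 cytokines for which they are best known, they make growth factors, neuropeptides, metabolic enzymes and further cytokines that act on epithelium, nerves, vessels and neighbouring leukocytes. The 9 genes described here belong to that second group: the epidermal growth factor (EGF) receptor ligand Areg, the peptide precursors Calca and Penk, the arginine enzyme Arg1, the cytokines Csf2, Il2, Il6 and Lif, and the chemokine Ccl1. They were chosen by symbol, and each symbol matched 1 of the 55394 genes listed for every library.

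The libraries came from wild type mice. In the Abx group, 3 libraries were made from lung ILC2s of neonates whose C57BL/6 dams drank water with ampicillin, metronidazole, neomycin and vancomycin from gestation day 10 to 14. In the Con group, 3 libraries were made from lung ILC2s of neonates born to control dams, and the comparison asks what prenatal exposure to antibiotics does to the neonatal cells. Each library was made by SMART-seq, which amplifies whole transcripts, from 1000 cells sorted as CD45+ Lin- CD90.2+ CD25+. CD45 marks leukocytes, and the lineage antibodies, which included those against T cell receptor and CD3 chains, B220, NK1.1, CD11b, CD11c, Gr1 and Ter119, were used to remove T, B and NK cells, most myeloid cells and erythroid cells. The labels give neither the age of the neonates nor the number of pups or litters behind a library, so the p-values measure the spread between these libraries, part of which may be technical. The gate does not use the IL-33 receptor, whose gene Il1rl1 stayed between 0.01 and 2.94 FPKM. Each of the other 13 of 14 ILC2 markers reached 1 FPKM in every library, among them Gata3, Id2, Il7r and Thy1, and the summed level of the 14 overlapped between Con (1580 to 1893 FPKM) and Abx (1655 to 2117 FPKM). Id2 made up much of that sum, and without it the sum was 798 to 1040 FPKM in Con and 630 to 801 FPKM in Abx. The costimulatory receptor gene Icos was lower in every Abx library, with 241, 289 and 287 FPKM in Con, against 82.4, 115 and 120 FPKM in Abx (log2 difference -1.37, SE 0.23, limma adjusted p = 0.0911), and all Abx values of Il1rl1 also lay below those of Con.

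Areg encodes amphiregulin, which is shed from the cell surface and promotes epithelial repair. Calca encodes calcitonin and, by alternative splicing, calcitonin gene-related peptide (CGRP), a neuropeptide that lung ILC2s make and also sense. Penk encodes proenkephalin, the precursor of the enkephalin opioid peptides. Arg1 encodes arginase 1, which cleaves arginine to ornithine and urea. Csf2 encodes GM-CSF, a growth and survival factor for myeloid cells, and Ccl1 encodes the ligand of the receptor CCR8. Il2 encodes interleukin-2, a lymphocyte growth factor, while Il6 and Lif encode cytokines that signal through the shared receptor chain gp130.

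The members lie on 6 chromosomes of the GRCm38 mouse genome. Areg lies at chr5:91139599-91148432 (plus strand) and Il6 at chr5:30013114-30019981 (plus strand). Csf2 lies at chr11:54247271-54249667 (minus strand), Ccl1 at chr11:82176657-82305690 (minus strand) and Lif at chr11:4257557-4272514 (plus strand). Calca lies at chr7:114631478-114636357, Arg1 at chr10:24915221-24927484, Il2 at chr3:37120523-37125959 and Penk at chr4:4133531-4138819, all on the minus strand. A single long transcript extends the span of Ccl1, whose RefSeq start lies at position 82179812. The spans of Csf2, Il2 and Penk overlap genes on the other strand. The library kit does not mark strand, so reads from shared bases cannot be told apart. Adad1, which overlaps Il2, was listed at 0 FPKM in all 6 libraries, A830012C17Rik, which overlaps Penk, reached at most 0.45 FPKM, and the antisense transcript Gm12223, which shares 2068 bases with Csf2, had 5.21 to 7.42 FPKM in Con, against 0.81 to 1.72 FPKM in Abx.

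Upstream sequences from RefSeq (GRCm38.p6) were matched for 7 of the 9 genes, and Arg1 and Penk were not matched. Of the genes whose levels did not overlap between the groups, Areg, Calca and Csf2 had a sequence, and the 150 bases before their start sites are shown so that their content can be compared. Capitals mark cyclic AMP response elements (CRE, TGACGTCA, or its core TGACG on either strand, CGTCA) and a TATA box (TATAAA). Runs are given 5′ to 3′ along the gene's own strand.
Areg, chr5:91139449-91139598, plus strand: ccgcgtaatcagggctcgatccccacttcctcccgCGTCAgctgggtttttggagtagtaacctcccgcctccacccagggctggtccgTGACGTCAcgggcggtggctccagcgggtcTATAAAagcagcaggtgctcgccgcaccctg
Calca, chr7:114636358-114636507, minus strand: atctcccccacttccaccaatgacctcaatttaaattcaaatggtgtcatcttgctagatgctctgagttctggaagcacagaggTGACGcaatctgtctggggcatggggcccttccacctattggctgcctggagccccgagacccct
Csf2, chr11:54249900-54250049, minus strand: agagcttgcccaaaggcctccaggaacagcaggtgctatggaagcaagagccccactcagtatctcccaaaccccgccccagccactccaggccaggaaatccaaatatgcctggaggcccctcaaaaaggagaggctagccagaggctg

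The Areg stretch held a whole CRE at bases -61 to -54, a separate core element at -115 to -111 and a TATA box at -31 to -26, counted back from the start site. The Calca stretch held 1 core element at -65 to -61. The Csf2 stretch held none of these letters, and its RefSeq start lies 232 bases upstream of the start in the GENCODE annotation, so the window may not be the one used. Searched over both strands of the 250 bases upstream of all 32851 RefSeq starts, the whole CRE occurred in 1.55% of windows, a core element, which every whole CRE also contains, in 17.77% and the TATA box in 12.37%. Within the 150 bases nearest the start, the length shown above, these shares were 1.36%, 13.32% and 7.57%. The windows of the other genes, and the shares given with them, are for 250 bases. The Il6 window held a core element, an AP-1 site (TGACTCA or TGAGTCA, in 4.46% of windows) and GGGATTTTC (in 0.19%), the Il2 window held a TATA box, the Lif window held an AP-1 site and the Ccl1 window held none of these motifs. These are matches of letters and were not tested as sites.

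Levels are given in FPKM, which scale fragments by transcript length and by the total mapped. In Con, the order of mean levels was Csf2, Areg, Arg1, Calca, Ccl1, Penk, Il2, Il6 and Lif. The ranges of neighbours overlapped for Areg and Arg1 and for each step from Ccl1 to Il6, while Csf2, Calca and Lif stood apart from their neighbours in all 3 libraries. In Abx the order was Csf2, Arg1, Areg, Ccl1, Calca, Il2, Penk, Il6 and Lif, with overlap between Arg1 and Areg and between all neighbours from Ccl1 to Il6. The 9 genes together made up 1.17% to 1.45% of all FPKM in Con and 0.493% to 0.637% in Abx.

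**Figure D1:**
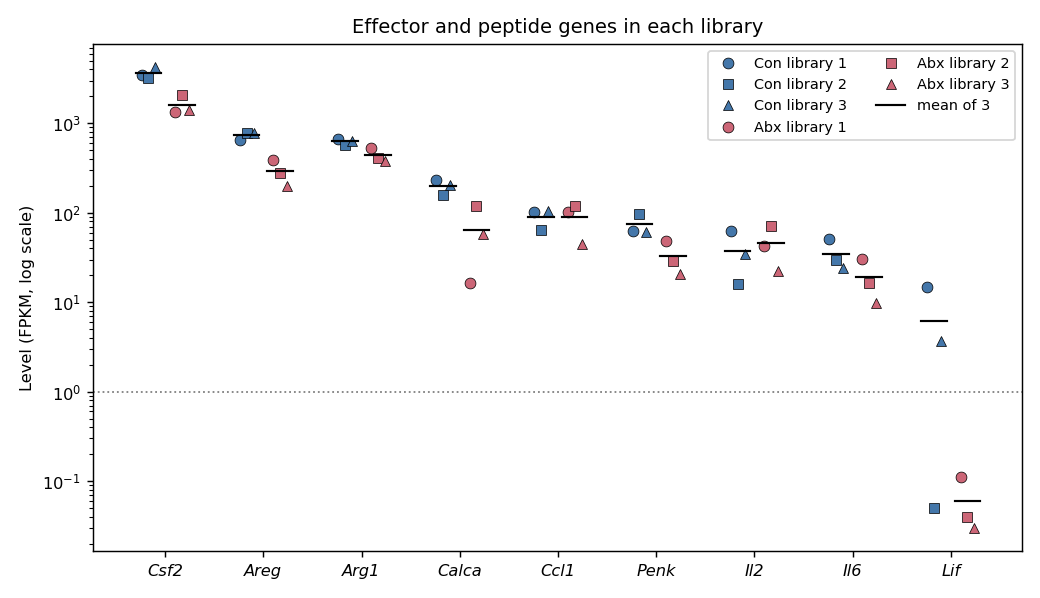
FPKM of each gene (log axis) in the 3 Con libraries (blue) and the 3 Abx libraries (red), with the mean of each group as a bar and 1 FPKM as a dotted line; symbols give the library number. Csf2, Areg, Arg1, Calca and Penk have all Abx points below all Con points, Ccl1, Il2 and Il6 overlap, and Lif is near 0 in 4 libraries.

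The groups were compared with limma on log2(FPKM + 1) over the 8718 genes that reached 1 FPKM in 3 or more libraries, with Benjamini-Hochberg adjustment. A gene was called at an adjusted p under 0.05 and a fold change over 2. Of the 9 genes, 8 passed the filter and none was called. Across all genes tested, 4 (0.0459%) were called higher in Abx and 1 (0.0115%) was called lower. Without adjustment, 5 of the 8 genes (Csf2, Areg, Calca, Arg1 and Penk) had a p under 0.05 and a lower level in Abx, and none had one in the other direction. Of all genes tested, 6.25% had such a p with a lower level in Abx and 4.74% with a higher level. For the same 5 genes, every Abx library lay below every Con library, as it did for 8.73% of all genes tested, while 8.49% had every Abx library above. Among the 668 genes with a mean of 100 FPKM or more these shares were 12.3% below and 16.8% above. The median difference of the 8 genes was -1.06 on the log2 scale, against -0.06 for all genes tested. In RNA from sorted pools, fewer cells of a type and less RNA per cell cannot be told apart.

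**Figure D2:**
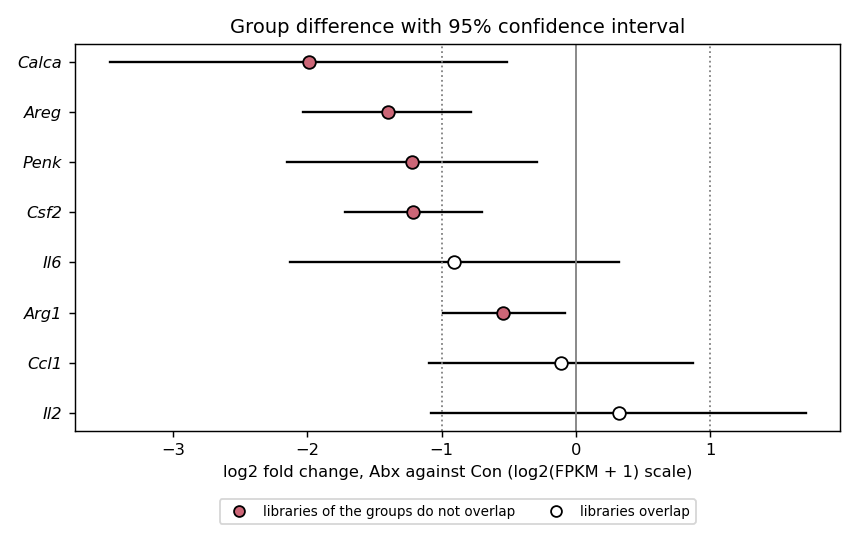
Log2 fold change of Abx against Con from limma on log2(FPKM + 1), with its 95% confidence interval, for the 8 genes tested; filled points mark genes whose libraries do not overlap between the groups. The intervals of Calca, Areg, Penk, Csf2 and Arg1 lie below 0 and those of Il6, Ccl1 and Il2 include 0; dotted lines mark a 2-fold difference.

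The EGF receptor ligand Areg had 657, 783 and 780 FPKM in the 3 Con libraries and 393, 278 and 197 FPKM in the 3 Abx libraries. The lowest Con library lay well above the highest Abx library. The Con libraries averaged 740 ± 72.0 FPKM (SD, n = 3) and the Abx libraries 289 ± 98.6 FPKM (SD, n = 3), a 2.56-fold difference. On the log2 scale the groups differed by -1.40 (SE 0.27, 95% confidence interval -2.03 to -0.78, limma adjusted p = 0.0911). Its p ranked 90 of 8718, and 94 genes shared this adjusted p or a lower one. In rank within a library, from the highest level down, Areg stood at 75 to 98 in Con and at 156 to 322 in Abx. Adam17 encodes the protease that sheds amphiregulin from the cell surface. It had 6.09, 7.16 and 6.20 FPKM in Con, against 0.19, 0.06 and 0.03 FPKM in Abx, a log2 difference of -2.77 (SE 0.53, limma adjusted p = 0.0911). Of the 11 genes listed around Areg, only Adam17, Adam10 and Hbegf passed the filter, and the receptor gene Egfr was at most 0.02 FPKM in any library.

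The Calca gene had 235, 158 and 205 FPKM in Con, against 16.6, 119 and 57.3 FPKM in Abx. The groups did not overlap, but the Abx libraries differed much more among themselves, with a coefficient of variation of 80.4% against 19.5% in Con. The Con libraries averaged 199 ± 38.9 FPKM (SD, n = 3) and the Abx libraries 64.5 ± 51.8 FPKM (SD, n = 3). This gave a log2 difference of -1.99 (SE 0.64, 95% confidence interval -3.47 to -0.51, limma adjusted p = 0.253). Without Abx library 1, which had the lowest value, it was -1.24 (SE 0.37, limma adjusted p = 0.264). Calca has 7 annotated transcripts, and a value per gene does not separate calcitonin from CGRP. Pulmonary neuroendocrine cells, which lack CD45, also make CGRP. None of their 10 listed markers passed the filter. The summed level of those markers was 0.12 to 6.50 FPKM in Con, against 0.23 to 1.38 FPKM in Abx. The part of such cells in the Calca levels was not tested. The paralogue Calcb reached 3.02 FPKM in 1 Con library and was listed at 0 in all Abx libraries.

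Of the 9 genes of the calcitonin family and its receptors, 4 passed the filter, and all 4 had a lower mean in Abx. Adm encodes the vasodilator peptide adrenomedullin. It had 82.2, 19.3 and 54.9 FPKM in Con and 0.26 FPKM in 1 Abx library, and was listed at 0 in the other two, a log2 difference of -5.40 (SE 0.77, limma adjusted p = 0.0911). The CGRP receptor consists of the subunit encoded by Calcrl and the accessory protein encoded by Ramp1. Ramp1 was steady in Con, at 252 to 264 FPKM, and ran from 173 to 260 FPKM in Abx, a log2 difference of -0.37 (SE 0.23, limma adjusted p = 0.638). Calcrl averaged 4.03 FPKM over the 6 libraries and its groups did not overlap, with 2.93 to 12.8 FPKM in Con, against 0.70 to 1.98 FPKM in Abx (log2 difference -1.55, limma adjusted p = 0.519). Ramp3, whose product pairs with the same subunit to form an adrenomedullin receptor, had a log2 difference of -0.66 (SE 0.50, limma adjusted p = 0.707).

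The opioid precursor Penk had 63.0, 97.5 and 61.7 FPKM in Con, against 48.3, 28.6 and 20.5 FPKM in Abx. The gap between the groups was small, from 48.3 FPKM in Abx library 1 to 61.7 FPKM in Con library 3. The Con libraries averaged 74.1 ± 20.3 FPKM (SD, n = 3) and the Abx libraries 32.4 ± 14.3 FPKM (SD, n = 3), a 2.28-fold difference. The log2 difference was -1.22 (SE 0.40, 95% confidence interval -2.15 to -0.29, limma adjusted p = 0.266). Of 13 listed genes for other opioid precursors, processing enzymes and opioid receptors, 3 were tested, all of them proprotein convertases, and none had an unadjusted p under 0.05. Pcsk1, which cleaves prohormones and is named here after its values were seen, had 46.2, 64.8 and 35.8 FPKM in Con, against 9.61, 31.0 and 28.4 FPKM in Abx (log2 difference -1.17, SE 0.52, limma adjusted p = 0.462). The opioid receptor genes Oprd1 and Oprm1 did not exceed 0.33 FPKM.

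The enzyme gene Arg1 had 675, 577 and 638 FPKM in Con, against 525, 411 and 377 FPKM in Abx. It had the lowest coefficient of variation of the 9 genes in Con and the groups did not overlap, but the difference was modest. The Con libraries averaged 630 ± 49.1 FPKM (SD, n = 3) and the Abx libraries 438 ± 77.7 FPKM (SD, n = 3), a 1.44-fold difference. Its log2 difference was -0.54 (SE 0.19, 95% confidence interval -0.99 to -0.08, limma adjusted p = 0.33), and 2789 of the 8718 genes tested had a larger log2 difference in the same direction. Macrophages, many of which carry CD11b or CD11c, can express Arg1 strongly. The summed level of 12 macrophage and monocyte markers overlapped between Con (154 to 404 FPKM) and Abx (194 to 395 FPKM) and came mostly from Lyz2, while Csf1r, Itgam, Marco, Mrc1, Fcgr1 and Siglecf stayed below 1 FPKM in all libraries. Without Lyz2 the sum was 41.1 to 52.9 FPKM in Con and 23.6 to 30.7 FPKM in Abx, with no overlap. It came mainly from Cd68 (14.3 FPKM on average in Con and 2.37 FPKM in Abx), Cd14 (22.2 and 8.81 FPKM) and C1qa (8.22 and 14.5 FPKM), each of which overlapped between the groups. Their part in the Arg1 difference was not tested.

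Among 13 genes of arginine and polyamine metabolism, 9 passed the filter, with 5 higher and 4 lower in Abx and none called. Slc7a1, which encodes a cationic amino acid transporter that brings arginine into the cell, had 22.4, 28.8 and 25.0 FPKM in Con, against 0.25, 5.47 and 3.97 FPKM in Abx (log2 difference -2.94, SE 0.77, limma adjusted p = 0.16). Amd1, which makes the aminopropyl donor for polyamines, had 23.2 to 30.0 FPKM in Con, against 1.44 to 18.7 FPKM in Abx (log2 difference -2.35, limma adjusted p = 0.326). Srm and Oat stood in the opposite direction. Spermidine synthase, encoded by Srm, had 67.9, 70.5 and 28.8 FPKM in Con, against 116, 98.8 and 123 FPKM in Abx (log2 difference 1.10, SE 0.38, limma adjusted p = 0.305). Oat, which encodes ornithine aminotransferase, had 59.3 to 86.9 FPKM in Con, against 99.7 to 126 FPKM in Abx (log2 difference 0.65, SE 0.26, limma adjusted p = 0.401). The ornithine decarboxylase gene Odc1 averaged 42.8 ± 7.33 FPKM (SD, n = 3) in Con and the Abx libraries 36.1 ± 11.8 FPKM (SD, n = 3). The second arginase gene, Arg2, was listed at 0 in 4 libraries and at 6.09 FPKM in Con library 3 and 1.85 FPKM in Abx library 2.

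Of the cytokine genes, Csf2 was by far the most abundant, with 3512, 3242 and 4259 FPKM in Con, against 1344, 2072 and 1401 FPKM in Abx. Even the highest Abx library lay more than 1000 FPKM below the lowest Con library. The Con libraries averaged 3671 ± 527 FPKM (SD, n = 3) and the Abx libraries 1606 ± 405 FPKM (SD, n = 3), a 2.29-fold difference. The log2 difference was -1.21 (SE 0.22, 95% confidence interval -1.72 to -0.70, limma adjusted p = 0.0911). Its p was the lowest of the 8 genes, at rank 54 of 8718. In rank by level within a library, Csf2 stood at 6 to 13 in Con and at 30 to 41 in Abx. The genes of its own receptor, Csf2ra and Csf2rb, did not exceed 1.96 FPKM. Il3, its neighbour in the common beta chain cytokine family, had 16.02 and 18.0 FPKM in 2 Con libraries and was listed at 0 in the third and in all Abx libraries, so it was not tested. Il3ra, the receptor chain specific to IL-3, had 2.02, 4.88 and 2.85 FPKM in Con, against 0.22, 0.05 and 0 FPKM in Abx (log2 difference -1.91, SE 0.47, limma adjusted p = 0.14).

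The growth factor gene Il2 had 62.0, 16.04 and 35.0 FPKM in Con, against 43.0, 71.6 and 22.5 FPKM in Abx, and was the only tested member with a higher mean in Abx. The values were interleaved. The log2 difference was 0.32 (SE 0.60, 95% confidence interval -1.08 to 1.71, limma adjusted p = 0.89), and it turned to -0.18 without Con library 2 and to -0.07 without Abx library 2. The receptor chains were present in all libraries. Il2rg, which encodes the shared gamma chain, averaged 1132 ± 91.3 FPKM (SD, n = 3) in Con and the Abx libraries 1091 ± 53.3 FPKM (SD, n = 3). Il2ra, whose product CD25 was part of the sort gate, had a log2 difference of -0.52 (SE 0.46, limma adjusted p = 0.743). Il2rb, which encodes the beta chain, had 109, 52.7 and 115 FPKM in Con, against 40.9, 29.2 and 69.0 FPKM in Abx (log2 difference -0.98, SE 0.44, limma adjusted p = 0.472).

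The Il6 gene had 51.3, 29.6 and 23.9 FPKM in Con, against 30.6, 16.5 and 9.88 FPKM in Abx. Abx library 1 lay above 2 of the 3 Con libraries. Its log2 difference was -0.91 (SE 0.53, 95% confidence interval -2.13 to 0.32, limma adjusted p = 0.608), an interval that includes both no difference and a difference of more than 2-fold. The Lif gene had 14.7, 0.05 and 3.66 FPKM in Con, against 0.11, 0.04 and 0.03 FPKM in Abx. It reached 1 FPKM only in Con libraries 1 and 3, missed the filter, and gave p = 0.2 in an exact two-sided permutation test, where 3 libraries against 3 cannot go below 0.1. The receptor genes Il6ra, Lifr and Osmr did not exceed 0.76 FPKM in any library. Il6st, the gene of the shared chain gp130, had 2.44 FPKM in Con library 1 and at most 0.23 FPKM elsewhere. Osm, which encodes the related cytokine oncostatin M, had 15.3, 28.5 and 33.6 FPKM in Con, was listed at 0 in Abx libraries 1 and 2 and reached 54.6 FPKM in Abx library 3.

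The chemokine gene Ccl1 had 103, 64.4 and 104 FPKM in Con, against 102, 119 and 44.4 FPKM in Abx. Both the highest and the lowest value were in Abx. The Con libraries averaged 90.3 ± 22.5 FPKM (SD, n = 3) and the Abx libraries 88.6 ± 39.2 FPKM (SD, n = 3). The log2 difference was -0.11 (SE 0.42, 95% confidence interval -1.09 to 0.87, limma adjusted p = 0.945), so these libraries do not exclude a difference of about 1 log2 unit in either direction. The direction turned to 0.32 without Abx library 3. Its receptor gene Ccr8 was abundant, with 615, 775 and 910 FPKM in Con, against 528, 740 and 592 FPKM in Abx (log2 difference -0.30, SE 0.22, limma adjusted p = 0.696).

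Other chemokine genes separated more than Ccl1 did. Cxcl2, which encodes a neutrophil attractant, had 1286, 1068 and 2048 FPKM in Con, against 744, 666 and 613 FPKM in Abx (log2 difference -1.07, SE 0.26, limma adjusted p = 0.13). Ccl3 had 266, 100 and 224 FPKM in Con, against 0.92, 0.58 and 128 FPKM in Abx, so that 1 Abx library lay within the Con range (log2 difference -4.64, SE 1.56, limma adjusted p = 0.283). Ccl4, which like Ccl3 encodes an inflammatory chemokine, had 174 to 243 FPKM in Con, against 0.44 to 134 FPKM in Abx (log2 difference -3.79, limma adjusted p = 0.346). Ccl5 stood in the opposite direction, with 74.7, 52.5 and 45.3 FPKM in Con, against 128, 98.9 and 116 FPKM in Abx (log2 difference 1.0, SE 0.29, limma adjusted p = 0.19).

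Over all 9 lists of related genes, 41 of 96 genes passed the filter and limma called none. Of the 41 genes, 31 had a lower mean in Abx and 10 a higher one. Their median log2 difference was -0.41, against -0.06 for all genes tested. Unadjusted limma p-values under 0.05 were found for 8 genes that were lower (19.5% of those tested, against 6.25% of all genes tested). For 3 genes that were higher the share was 7.32%, against 4.74% of all genes tested. The list of 15 further secreted products held 8 tested genes, among them Ltb, Tnf, Tnfsf11 and Bmp7, of which 7 had a lower mean in Abx and none had an unadjusted p under 0.05. Ltb, which encodes lymphotoxin beta, is given as an abundant example chosen after its values were seen, with 540 ± 73.4 FPKM (SD, n = 3) in Con against 511 ± 127 FPKM (SD, n = 3) in Abx. These lists were drawn up with results of these libraries known, and their counts are a description.

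**Figure D3:**
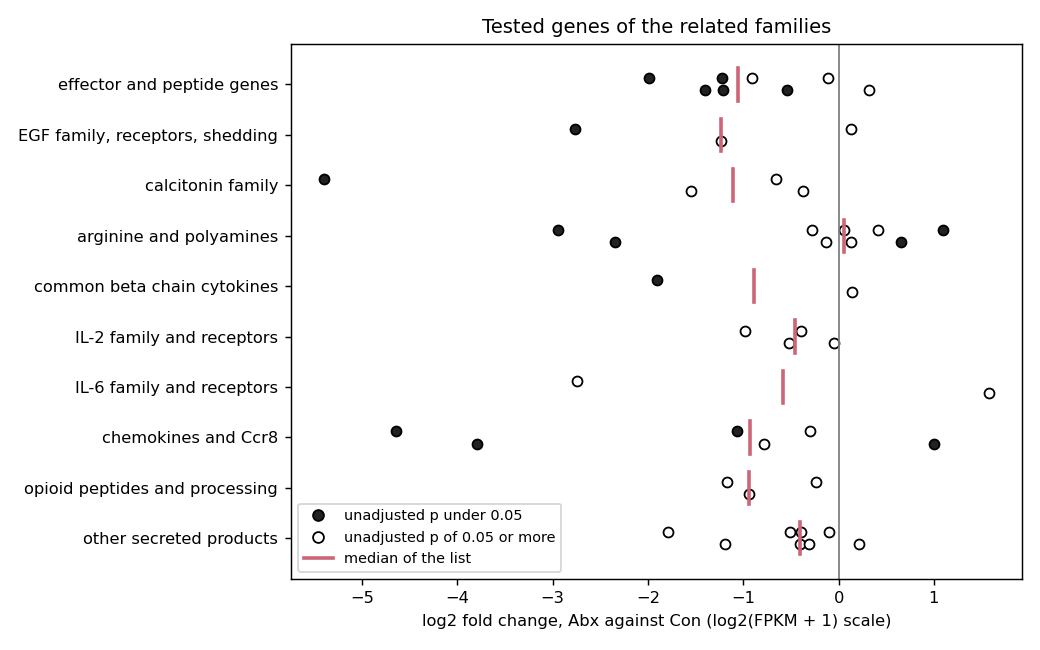
Log2 fold change of Abx against Con (log2(FPKM + 1) scale) for the tested effector and peptide genes and for the 41 tested genes of 9 related lists, 1 row per list; black points have an unadjusted limma p under 0.05 and the red bar is the median of the list. Adm lies furthest to the left at -5.40, and only the arginine and polyamine list and the chemokine list have black points on the right.

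Levels were also compared between genes of the same library, where a factor common to the whole library cancels. Of the 28 ratios between the 8 tested genes, 9 did not overlap between the groups and 19 did. These ratios share genes and are not separate results. The share over all pairs of genes was not computed, so the count is only a description. The ratio of Areg to Arg1 was 0.974, 1.36 and 1.22 in Con, against 0.749, 0.676 and 0.523 in Abx. Areg was thus above Arg1 in 2 of 3 Con libraries and in none of the Abx libraries. Against Ccl1, the ratio of Csf2 was 34.1, 50.4 and 41.1 in Con, against 13.2, 17.4 and 31.5 in Abx, and the ratio of Calca was 2.29, 2.46 and 1.98 in Con, against 0.163, 1.0 and 1.29 in Abx. The ratio of Areg to Csf2, by contrast, overlapped, with 0.183 to 0.242 in Con and 0.134 to 0.293 in Abx. No test is given for these ratios, since they were picked from the 28 by their values.

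**Figure D4:**
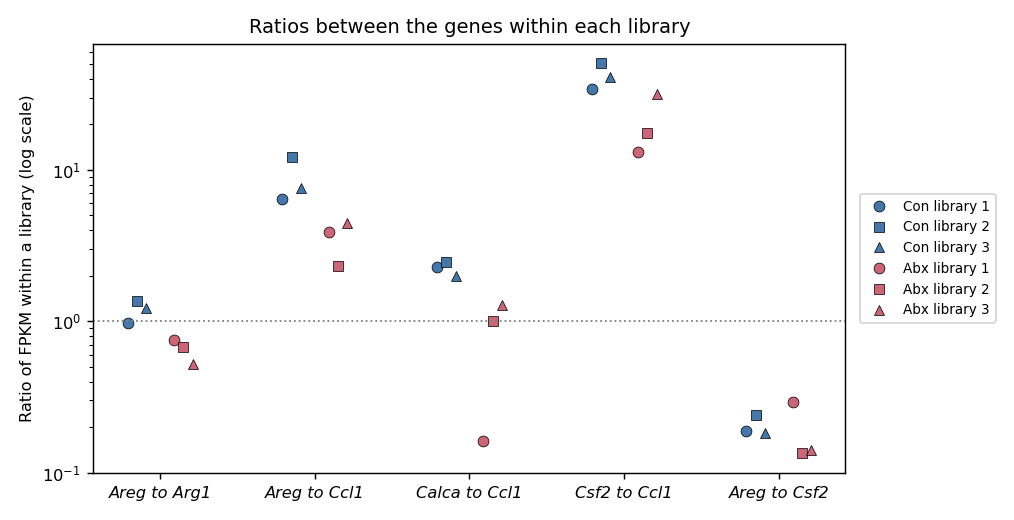
Ratio of the FPKM of one gene to that of another within each library (log axis) for 5 pairs, with Con in blue, Abx in red and 1 as a dotted line. Areg to Arg1, and Areg, Calca and Csf2 to Ccl1, are lower in all Abx libraries than in any Con library, while Areg to Csf2 overlaps.

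The genes whose pattern over the 6 libraries was most like that of each member were taken by Pearson's r of log2(FPKM + 1). This is a description over 6 libraries that share the group difference. For Areg these were Banf1 (r = 0.989), Hbb-bt (r = 0.988) and Tob2 (r = 0.986). For Calca they were Cox4i1 (r = 0.992), Selenof (r = 0.986) and Tpm4 (r = 0.985). For Csf2 they were Trmt2b (r = 0.997), Hilpda (r = 0.997) and Fth1 (r = 0.993). Hilpda, which encodes a lipid droplet protein, was about as abundant as Csf2, with a mean of 3067 FPKM in Con and 1161 FPKM in Abx. For Arg1 they were Emb (r = 0.989), Snora9 (r = 0.986) and Sap18b (r = 0.985), and for Penk they were Glt8d1 (r = 0.980), Eif4enif1 (r = 0.978) and Rassf1 (r = 0.972).

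The members without a clear difference had different neighbours. Those of Il6 included Hif1a (r = 0.972) and Mkrn1 (r = 0.970), for Il2 they were Pik3r1 (r = 0.985), Hspb11 (r = 0.984) and Gm9575 (r = 0.982), and for Ccl1 they were Gm6361 (r = 0.992), Ctla2b (r = 0.986) and Gm28438 (r = 0.986). Among the members themselves, Areg went most closely with Penk (r = 0.957) and with Arg1 (r = 0.943). Penk ranked 34 among the 8717 other genes in likeness to Areg, and Arg1 ranked 53. Areg and Calca were less alike (r = 0.551).

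Markers of other cells and of sample handling moved with the groups in part, and their part in the differences above was not tested. The summed level of 10 T cell markers was 262 to 279 FPKM in Con, against 445 to 521 FPKM in Abx, that of 10 B cell markers was 166 to 285 FPKM and 662 to 990 FPKM, and that of 8 NK cell and ILC1 markers, mostly from Gzma, was 2.45 to 28.8 FPKM and 215 to 235 FPKM. Without Gzma the NK cell and ILC1 sums overlapped between the groups. They were at least 2.45 FPKM in every Con library, against 11.3, 0.06 and 0 FPKM in Abx. Klrb1c, Tbx21 and Prf1 were listed at 0 in all libraries. The T cell sum came mostly from Lat (133 FPKM on average in Con and 185 FPKM in Abx) and Cd3g (114 and 161 FPKM). Both were higher in every Abx library, as were Cd3d (6.29 and 69.6 FPKM) and Cd8b1 (4.93 and 38.6 FPKM). Cd3e and Trac overlapped between the groups. Cd4, Cd5, Cd6 and Cd8a missed the filter, and Cd8a had a lower mean in Abx. Of the 6 T cell markers tested, 5 had a higher mean log2 level in Abx and 1 a lower one. The B cell sum rested on Ly6d (70.2 ± 21.7 FPKM in Con, against 655 ± 137 FPKM in Abx, SD, n = 3 each), and without it the sums overlapped at 121 to 204 FPKM in Con and 158 to 218 FPKM in Abx. Cd79b and Cd22 were lower in every Abx library, while Ms4a1 was higher in every Abx library (4.87 FPKM on average in Con and 14.1 FPKM in Abx). Of the 7 B cell markers tested, Ly6d included, 5 had a higher mean in Abx and 2 a lower one. Basophils and mast cells can also make cytokines such as Csf2 and Il6. The summed level of their 10 markers overlapped (423 to 561 FPKM in Con, 186 to 560 FPKM in Abx) only through Gata2 at 245 FPKM in Abx library 3. Without Gata2 it was 415 to 561 FPKM in Con and 185 to 319 FPKM in Abx, and the median log2 difference of the 5 tested markers, Gata2 included, was -2.12. The basophil protease gene Mcpt8 did not overlap, with 26.3, 36.9 and 21.8 FPKM in Con, against 8.41, 10.9 and 1.56 FPKM in Abx (limma adjusted p = 0.267). Kit, the stem cell factor receptor gene, was also lower in every Abx library (6.57 FPKM on average in Con and 0.233 FPKM in Abx, limma adjusted p = 0.309), and Ms4a2 was listed at 0 in the Abx libraries. Cpa3 and Prss34 had a lower mean in Abx but overlapped between the groups. Fcer1a was listed at 0 in all libraries but Abx library 2, where it had 16.2 FPKM.

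The 8 dendritic cell markers summed to 10.5 to 16.3 FPKM in Con, against 0.24 to 4.56 FPKM in Abx. Most of this came from Xcr1, the only 1 of them that passed the filter. It had 8.13, 10.4 and 16.3 FPKM in Con, against 4.14, 0.19 and 1.52 FPKM in Abx. Flt3, Clec9a, Siglech, Cd209a and Batf3 did not exceed 0.03 FPKM. The 8 erythroid markers, among them Hbb-bt, named above for its likeness to Areg, summed to 6422 to 14823 FPKM in Con and 3185 to 8659 FPKM in Abx. All 4 of them that passed the filter had a lower mean in Abx (median log2 difference -1.05), and Hbb-bt was lower in every Abx library (log2 difference -1.20, SE 0.32, limma adjusted p = 0.165). Epithelial markers overlapped as a sum, at 26.8 to 1158 FPKM in Con, against 55.9 to 142 FPKM in Abx. The highest sum came mostly from Scgb1a1, at 1109 FPKM in Con library 1. Of the 3 tested, Epcam and Scgb1a1 overlapped and had a lower mean in Abx. Sftpc was higher in every Abx library, with 36.8, 11.5 and 11.3 FPKM in Con, against 52.3, 48.3 and 56.1 FPKM in Abx (log2 difference 1.56, SE 0.50, limma adjusted p = 0.257). Immediate-early genes, which respond to stimulation and to handling of cells, overlapped as a sum (8442 to 13754 FPKM in Con, 5555 to 11585 FPKM in Abx), but 4 of the 13 tested (Junb, Ier3, Atf3 and Nr4a1) had an unadjusted p under 0.05 with a lower level in Abx. Heat-shock genes also overlapped as a sum (699 to 1018 FPKM in Con, 947 to 1178 FPKM in Abx), with 6 of the 7 tested higher in Abx, and 2 of these (Hspe1 and Hsp90aa1) had an unadjusted p under 0.05.

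The 2 groups also differed as libraries. The number of genes at 1 FPKM or more was 8574 to 9203 in Con and 7074 to 8193 in Abx, and libraries of the same group correlated at r = 0.741 to 0.786 in Con and 0.548 to 0.611 in Abx (log2(FPKM + 1) across genes, which are not independent). Abx library 1 stood apart on the first principal component (30.8% of the variance) and Abx library 3 on the second (26.4%). Csf2, Areg, Calca, Arg1 and Penk did not overlap between the groups, so leaving out any 1 of the 6 libraries could not turn their direction. Xist, the X-inactivation transcript of female cells, had 3.78, 4.38 and 5.09 FPKM in Con and was listed at 0 in Abx. The labels do not give the sex of the pups, and a possible difference in sex is read here from this transcript alone. Such a difference and the exposure cannot be told apart for any of these genes. Read depth is unknown, since the values are FPKM.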

How the data were processed

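RNA was measured in 6 libraries, 3 Con and 3 Abx, grouped by the sample labels. The deposited values are FPKM per gene, which the authors made with Cutadapt 1.9, HISAT2 2.0.4 and StringTie 1.3.4d. The methods name a human Ensembl 96 annotation, but the identifiers are mouse. The submitters' processing notes list Bowtie 0.12.2, mm8 and mm9. The authors' test with DESeq2 1.40.0 on counts was not repeated, and depth is unknown.

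Genes that reached 1 FPKM in 3 or more libraries were tested with limma 3.58.1 in R 4.3.3 (lmFit, eBayes with trend, two-sided) on log2(FPKM + 1), with Benjamini-Hochberg adjustment, and log2 differences understate changes of low genes. Both thresholds for a call are those of the study. The fit was checked on simulated data with an equal spread in both groups. The Abx libraries here agreed less with each other than those of Con did, which that check does not cover. Lif, under the filter, was tested by exact permutation. Coordinates are those of GENCODE M21 (GRCm38). The members, gene lists and tests were chosen with earlier results of these data known. Named related genes were receptors or close relatives of a member with a mean of 5 FPKM or more and genes with an unadjusted p under 0.05. Others are named as exceptions, as background or where a list was counted. Marker lists are given as counts and sums, and sums without 1 gene were added after seeing the data. For each member the 3 genes most alike are named, except 1 for Il6 that is not reported here. Alternatives were pseudocounts of 0.1 and 0.01, quantile normalization, median centring, no filter, a stricter filter (mean of 5 FPKM), a replicate block and each library left out.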

Additional observations from a re-analysis of the deposited data

How the results depend on the processing

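The count of members called and that of related genes called stayed at 0 under all 13 alternatives. Over all genes, the 4 called higher in Abx became 0 with a pseudocount of 0.1 or 0.01, with median centring, without the filter and with the replicate block, and ranged from 0 to 0 when 1 library was left out. The 1 called lower became 0 under the same 5 alternatives and 2 with quantile normalization and with the stricter filter, and ranged from 0 to 2 when 1 library was left out (2 without Abx library 2). Neither the labels nor the methods name a pairing, so the main fit used none. Same-numbered libraries did not deviate together over the genes tested (r = -0.029 to 0.01). A pairing that touched few genes would not show in these values. With the replicate block, 0 genes were called higher and 0 lower.

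Of 116 recomputed differences of members, 112 kept their direction. For the 5 members without overlap, leaving out 1 library could not turn it. Il2 turned to -0.18 without Con library 2 and -0.07 without Abx library 2 (range -0.18 to 0.77 with 1 library left out), and Ccl1 to 0.00 without Con library 3 and 0.32 without Abx library 3 (range -0.38 to 0.32). The cause was not tested. The log2 difference ranged from -1.65 to -1.16 for Areg (limma adjusted p 0.0864 to 0.417), from -1.41 to -1.10 for Csf2 (0.0839 to 0.404), from -2.63 to -1.24 for Calca (0.147 to 0.706), from -1.54 to -0.94 for Penk (0.196 to 0.667), from -0.67 to -0.44 for Arg1 (0.243 to 0.706) and from -1.31 to -0.54 for Il6 (0.35 to 0.878). Lif was lower in Abx under the 12 alternatives that gave it a value, and the stricter filter gave none. The count of 5 members without overlap, recomputed by a choice made after seeing the data, was 5 with quantile normalization (9.12% of all genes tested), 4 with median centring (without Arg1, 8.47%) and 5 to 6 with 1 library left out (11.7% to 15.9%), against 8.73% with all libraries. Leaving out a library can only keep or raise this count and the share of all genes.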
